A study of Mus musculus with 54 samples.

Results

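Group 2 innate lymphoid cells (ILC2s) from the small intestine were cultured for 72 h with interleukin-2 (IL-2) and IL-7, or with IL-2, IL-7 and IL-25, and their RNA was sequenced as full-length Smart-seq2 libraries. The cells came from wild-type C57BL/6 mice of 8 to 12 weeks, males and females pooled, and had been flow-sorted. Each condition has 4 libraries, chosen by their treatment and time labels, and these 8 are among the 40 RNA libraries and 54 samples of the study. Both conditions hold IL-2 and IL-7, so what is compared is the addition of IL-25 to cells that already receive a growth signal. The labels give no cytokine dose and do not say whether the 4 libraries of a condition came from separate mice or wells, so a p-value measures the spread between libraries, which may be technical.

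ILC2s are tissue lymphocytes without antigen receptors that answer epithelial alarm signals with the type 2 cytokines IL-5 and IL-13. In the gut, IL-25 is released by tuft cells and binds a receptor made of IL-17RB, which holds the ligand, and the shared chain IL-17RA; the adaptor ACT1, encoded by Traf3ip2, carries the signal to NF-kB and MAP kinases. IL-2 and IL-7 act through receptors that share the common gamma chain, encoded by Il2rg, and through JAK1, JAK3 and STAT5.

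All values are TPM as deposited, a level per transcript length scaled to the same total in every library. Of 10799 listed genes, 10548 reached 1 TPM in at least 4 of the 24 culture libraries and were tested with limma on log2(TPM + 1), and a gene is called where its p, adjusted over all tested genes by the Benjamini-Hochberg method, is under 0.05. Log2 differences are with IL-25 minus without on that scale, which understates the change of low genes. At 72 h, 5113 genes were called, 48.5% of those tested: 1610 (15.3%) were higher with IL-25 and 3503 (33.2%) lower. Called changes of at least 2-fold numbered 520 upward (4.93%) and 760 downward (7.21%), and 43.3% of tested genes had no overlap between the 4 libraries with and the 4 without IL-25. Counts within the gene lists below stand against 15.3% higher and 33.2% lower over all tested genes. The median log2 difference over all tested genes was -0.20. Rescaling the libraries moved the balance: after median-of-ratios scaling, which centres them on the typical gene, that median was 0.01 and the split 2651 higher to 2150 lower, and after quantile normalization -0.04, with 2162 higher and 2475 lower, so small changes are read against this shift. Between 9598 and 9941 genes reached 1 TPM in each library, and all listed genes together held 876181 to 895008 TPM. Pearson's r across the tested genes was 0.984 to 0.987 within a condition and 0.925 to 0.935 between conditions. By this measure no library stood apart, though replicate 2 without IL-25 did for some genes described below. Sequencing depth is unknown, since TPM keeps no read counts.

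The label of the cells was checked against marker lists. All 16 ILC2 markers were listed, and their summed level was 3006 to 3492 TPM without and 6048 to 7009.6 TPM with IL-25. The members went both ways, 7 higher and 7 lower with a median log2 difference of -0.29, and with IL-25 the cytokine gene Il5 made up the largest share of the sum. Gata3, the transcription factor that defines these cells, was at 877 and 523 TPM. Of the markers of other cells, none of 8 for mast cells and basophils and none of 7 for neutrophils and eosinophils were listed. Listed were 1 of 9 for macrophages (Cd68, 0.92 and 5.04 TPM), 1 of 8 for B cells (Cd79b, 43.1 and 142 TPM), 2 of 9 for T cells (Cd3g and Cd3e, summing to 96 to 114 TPM without and 30.8 to 42.2 TPM with IL-25) and 2 of 10 for epithelium (Epcam, 77.9 and 45.2 TPM, and Krt18, 0.175 and 11.8 TPM). Of the NK cell and ILC1 markers 4 of 8 were listed, summing to 6.3 to 10.7 TPM without and 9.97 to 21.1 TPM with IL-25: Itga2 rose, from 4.51, 5.04, 5.9 and 3.6 TPM to 9.97, 19.9, 18.7 and 21 TPM, while Ncr1 and Klrc1 were listed at 0 in every library with IL-25. The dendritic cell markers (2 of 5 listed, mostly Xcr1) summed to 2.66 to 5.49 TPM without and 14.9 to 18.9 TPM with IL-25, the stromal and endothelial markers (2 of 8, mostly Pecam1) to 12.1 to 15.8 TPM without and 25.3 to 44.1 TPM with IL-25, and the ILC3 markers (4 of 6) to 4.37 to 10.3 TPM without and 0 to 0.3 TPM with IL-25. The defining genes Cd3d, Lyz2, Vil1 and Col1a1 were not listed. The alpha globins Hba-a1 and Hba-a2, which mark red blood cells, summed to 633 to 798 TPM without IL-25 and 8.71 to 20.9 TPM with it, while the beta globins Hbb-bs and Hbb-bt were not listed. The part of other cells in any result below was not tested, and in bulk RNA fewer cells of a type and less RNA per cell cannot be told apart.

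The transcript of the receptor chain specific to IL-25 fell. Il17rb (chromosome 14, mm10, chr14:29996168-30008896) stood at 128, 147, 146 and 142 TPM without IL-25 and at 11.8, 11.4, 14.1 and 11.3 TPM with it. Every library with IL-25 lay below every library without it, and the log2 difference was -3.44 (SE 0.09, limma adjusted p = 4.22e-20). Il17ra, the shared chain, was at 16.8, 20.3, 17.6 and 16.2 TPM without and 11.6, 16.2, 18 and 18.5 TPM with IL-25; its difference of -0.15 (95% interval -0.47 to 0.17) did not pass the test. Traf3ip2, the adaptor, was not called either, at 37.2 ± 1.72 TPM and 35.8 ± 3.6 TPM (mean ± SD, n = 4 libraries each, here and below).

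Other cytokine receptors moved in both directions. Of 31 tested, 6 were higher and 12 lower, shares near those of all genes, and 8 and 10 after median-of-ratios scaling. Il1r2 encodes the decoy receptor that binds IL-1 without signalling. It was at 2.73, 0.21, 2.7 and 4.16 TPM without IL-25 and at 151, 145, 105 and 140.1 TPM with it, a log2 difference of 5.47 (SE 0.39, adjusted p = 1.72e-11), and the libraries of the 2 conditions did not overlap. The receptors for the 2 cytokines present in every well moved apart. Il2ra, the high-affinity chain for IL-2, rose from 75.1 ± 11.8 to 152 ± 19.2 TPM, while Il7r, the IL-7 receptor chain, fell from 55.3 ± 4.03 to 8.06 ± 3.01 TPM and the common gamma chain Il2rg from 1139.9 ± 74.4 to 429 ± 12.2 TPM. The interferon-gamma receptor split in the same way between its chains: Ifngr2, the signalling chain, fell from 59.8 ± 7.2 to 8.44 ± 2.53 TPM, and Ifngr1, the binding chain, rose from 137 ± 6.46 to 169 ± 12.7 TPM.

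Among 12 tested type 2 cytokines and ILC2 effector ligands, 4 rose, namely Il5, Il13, Areg and Calca. Another 4 fell, all from low levels, and 4 were not called. Il5 was at 243, 153, 171 and 258 TPM without and 3449.7, 2949, 2673 and 3568 TPM with IL-25. Il4, which shares a locus with Il5 and Il13, was at 121, 109.8, 118 and 91.6 TPM without and 121, 97.2, 113 and 89.8 TPM with IL-25, and its difference of -0.07 (95% interval -0.31 to 0.17) did not pass the test. Il9, a growth factor for mast cells, was uneven among libraries, at 3.24, 3.72, 2.2 and 1.24 TPM without and 15, 14.2, 1.29 and 2.67 TPM with IL-25, and did not pass either, though it was called higher without replicate 3 (log2 difference 1.48) or replicate 4 (1.25) of the IL-25 libraries. Among 22 other cytokines, 6 were higher and 11 lower. Osm, encoding oncostatin M, rose from 66.2 ± 7.7 to 139 ± 14.1 TPM, and Mif from 686 ± 62.7 to 1540.5 ± 163 TPM. The falls included the 3 neighbouring genes of the lymphotoxin locus on chromosome 17: Ltb went from 318 to 13.9 TPM, Lta from 11.4 to 1.21 TPM and Tnf from 9.06 to 1.9 TPM. Tnfsf14, which encodes the ligand LIGHT, fell from 152 ± 4.4 to 27.9 ± 4.75 TPM, Il2 from 15.2, 9.78, 9.65 and 6.58 TPM to 0, 0.28, 0 and 1.03 TPM and Flt3l from 137 ± 19.8 to 58.3 ± 3.26 TPM. None of the 8 tested chemokines rose and 3 fell, all from low levels, with Cxcl10 listed at 2.11, 7.3, 2.47 and 3.59 TPM without IL-25 and at 0 in every library with it.

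Over all tested genes falls outnumbered rises, 33.2% against 15.3%. Of 27 tested genes of the JAK and STAT pathway 14 fell and 4 rose, or 9 and 6 after median-of-ratios scaling. The 4 that rose were Socs3, Pim2, Pim3 and Ptpn1. Socs3, an inhibitor of STAT3 signalling, was at 18, 27.4, 17.8 and 26.6 TPM without and 195, 142, 164 and 164 TPM with IL-25, and the kinase gene Pim2 rose from 93.3 ± 8.05 to 454 ± 45.9 TPM. Neither pair of groups overlapped. Socs2 fell from 193 ± 17.5 to 116 ± 8.73 TPM, and Ptpn6, which encodes the phosphatase SHP-1, from 113 ± 9.93 to 36.6 ± 2.61 TPM. In the NF-kB pathway, 9 of 32 tested genes were higher and 12 lower, or 9 and 8 after median-of-ratios scaling. Nfkbia, the inhibitor induced by the pathway itself, rose from 157 ± 15.7 to 258 ± 29.1 TPM and Bcl3 from 12.5 ± 2.12 to 44.8 ± 4.47 TPM, whereas Relb and Nfkb2, the 2 subunits of the non-canonical branch, fell from 33 ± 3.05 to 9.81 ± 1.64 TPM and from 44.4 ± 6.05 to 15.5 ± 2.72 TPM.

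Granule genes of cytotoxic lymphocytes changed in both directions. Together Gzma and Gzmb, which encode serine proteases that kill target cells, took 0.00651% to 0.0184% of all listed TPM without IL-25 and 1.62% to 1.87% with it. Gzma (chromosome 13, chr13:113093824-113100981) was at 2.8, 3.69, 3.14 and 12.4 TPM without and 3586, 4906, 4656 and 4462 TPM with IL-25, and Gzmb at 86.1, 88.5, 54 and 149 and 10865, 11694, 9989.7 and 11850.0 TPM. No library of one condition reached the range of the other. Prf1, encoding the pore protein perforin, was at 2, 3.43, 3.49 and 3.04 TPM without and 24.5, 31.7, 33.2 and 33 TPM with IL-25, a log2 difference of 2.99 (SE 0.16, adjusted p = 9.00e-14). Srgn encodes serglycin, the proteoglycan that packs granzymes, and rose from 1298 ± 60.4 to 3963 ± 332 TPM. Of the NK cell and ILC1 markers, Itga2 rose as well, while Ncr1 and Klrc1 were listed at 0 with IL-25. Of the release machinery, Stx11 rose from 9.17 ± 1.46 to 42.2 ± 8.56 TPM, Rab27a fell from 19 ± 2.06 to 12 ± 0.72 TPM and Nkg7 from 81.8 ± 12.7 to 57.8 ± 2.48 TPM, a fall that is not called after median-of-ratios scaling. Serpinb9, the inhibitor that protects a cell from its own granzyme B, fell from 18.8, 20.1, 15.8 and 15.8 TPM to 2.21, 3.19, 2.57 and 2.14 TPM, with no overlap. Over the list, 6 of 16 tested genes were higher and 6 lower (7 and 3 after median-of-ratios scaling), with a median log2 difference of -0.01.

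**Figure D1:**
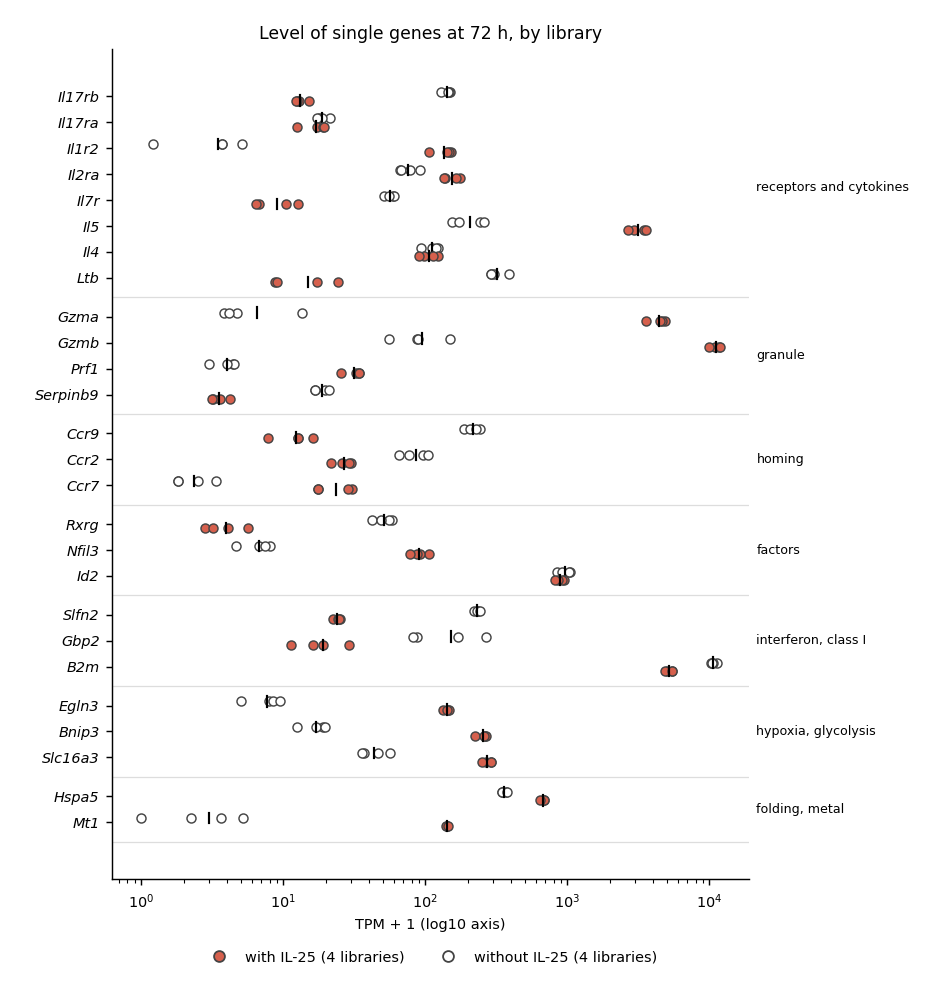
Level of 26 genes in the 8 libraries at 72 h, as TPM + 1 on a log10 axis, grouped by role. Each circle is 1 of the 4 libraries with IL-25 (filled) or without (open), and the short bars mark the group means. Gzmb lies near 11100 TPM with IL-25 and near 94.5 TPM without, while Il17rb lies at 12.1 TPM with and 141 TPM without.

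Surface receptors changed in both directions. In the TNF receptor superfamily, 7 of 21 tested genes were higher and 6 lower. Tnfrsf18, encoding the costimulator GITR, rose from 428 ± 21.1 to 1007 ± 82.3 TPM and Tnfrsf1b, the second TNF receptor, from 26.1 ± 3.8 to 151 ± 19.1 TPM. Tnfrsf25, encoding DR3, the receptor for the ILC2-activating ligand TL1A, went the other way, from 88.6, 108, 87 and 103 TPM to 12.8, 11.4, 13.1 and 9 TPM, and the groups did not overlap. The receptors that compete for the ligands CD155 and CD112 were among those that changed most: Tigit, which inhibits, was at 4.4, 2.99, 1.08 and 0.3 TPM without and 119, 154, 141 and 122 TPM with IL-25, while Cd226, which activates, fell from 44.4 ± 16.7 to 5.02 ± 1.81 TPM and Cd96 from 63.8 ± 4.63 to 4.75 ± 1.66 TPM. Pvrig, a further receptor for CD112, rose from 1.72 ± 0.792 to 13.7 ± 1.63 TPM. In the whole list of inhibitory and costimulatory receptors, 11 of 29 were higher and 13 lower, or 12 and 11 after median-of-ratios scaling. Pdcd1, which encodes PD-1, was not called, at 9.41 ± 1.63 and 11.9 ± 2.23 TPM, but was called higher after median-of-ratios scaling (log2 difference 0.52) and quantile normalization (0.57).

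Homing receptors also changed in both directions. Ccr9, the receptor for the small intestinal chemokine CCL25, was at 186, 243, 205 and 225 TPM without and 6.79, 15.2, 11.8 and 11.8 TPM with IL-25, a log2 difference of -4.16 (SE 0.16, adjusted p = 8.21e-17). Every library with IL-25 lay below every control library. Ccr7, which guides lymphocytes to lymph nodes, rose from 1.37 ± 0.729 to 22.4 ± 6.95 TPM, and Gpr183, a receptor for oxysterols, fell from 61 ± 4.26 to 14.7 ± 1.26 TPM and Ccr2 from 84.7 ± 18 to 25.6 ± 3.75 TPM. Of 13 tested chemokine receptors 7 were higher and 4 lower, and Ccr4 was not called, at 29.6 ± 1.04 and 30.8 ± 4.19 TPM. Among single genes of tissue retention and exit, Cd69, which holds lymphocytes in tissue, rose from 59.7 ± 6.93 to 111 ± 11.3 TPM, Rgs1 from 349.9 ± 23.6 to 1159 ± 112 TPM, and S1pr1, the exit receptor that CD69 opposes, from 1.08 ± 0.483 to 9.65 ± 2.57 TPM. Over the adhesion and egress list the counts were 12 higher and 9 lower of 27 tested, or 5 lower without replicate 4 of either condition, with Cd44 falling from 99.1 ± 12.9 to 39.2 ± 2.05 TPM and the gut integrin chain Itgb7 not called, at 421 ± 90 and 340.1 ± 52.8 TPM.

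Of 26 tested receptors for neural and lipid signals 10 were lower and 4 higher, shares near those of all genes, and 7 and 5 after median-of-ratios scaling. Nmur1, the neuromedin U receptor by which neurons activate ILC2s, was not called, at 447, 461, 427 and 515 TPM without and 445, 442, 459 and 404 TPM with IL-25, with a difference of -0.08 (95% interval -0.30 to 0.14). Ptger4, a prostaglandin E2 receptor, fell from 54.2 ± 6.16 to 8.86 ± 1.44 TPM. Ramp1 and Ramp2 encode alternative partners of the same receptor for calcitonin-family peptides. Ramp1 fell from 9.57 ± 1.93 to 0.66 ± 0.443 TPM and Ramp2 rose from 2.01, 0, 0 and 0.77 TPM to 3.63, 10.3, 2 and 5.83 TPM. In eicosanoid synthesis, Alox5, the first enzyme of leukotriene synthesis, fell from 79.1 ± 12.6 to 19.9 ± 3.44 TPM, while Hpgds, which makes prostaglandin D2, was not called. Tph1, the rate-limiting enzyme of peripheral serotonin synthesis, was abundant in both and rose from 512 ± 55.6 to 732 ± 23.2 TPM.

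Of 33 tested transcription factors of the ILC2 lineage 7 were higher, 14 lower and 12 not called, with 9 higher and 10 lower after median-of-ratios scaling. Over all tested genes 15.3% were higher and 33.2% lower. Rxrg, the nuclear receptor that the study deletes in other samples, was at 41, 57.6, 54.9 and 47.9 TPM without and 1.83, 3.07, 4.66 and 2.19 TPM with IL-25, a log2 difference of -3.75 (SE 0.20, adjusted p = 7.72e-14) with no overlap. Rora, required for ILC2 development, fell from 189 ± 12.6 to 47.6 ± 1.14 TPM, and Id2, which all innate lymphoid cells need, was not called, at 954 ± 96.3 and 885 ± 52.1 TPM, except as a small fall after quantile normalization (-0.25) or without replicate 2 of the controls (-0.16). Nfil3, needed early in the lineage, was at 3.63, 7.06, 5.78 and 6.45 TPM without and 105, 90.4, 86.7 and 77.1 TPM with IL-25, and Tox2 rose from 4.72 ± 1.61 to 37.1 ± 6.16 TPM. Among 35 factors of activated lymphocytes 15 were higher and 12 lower. Crem rose from 47.3 ± 4.26 to 188 ± 16.5 TPM, Prdm1, which encodes BLIMP-1, from 7.1 ± 0.992 to 16.5 ± 1.83 TPM, and Batf from 174 ± 16.7 to 353 ± 41.8 TPM. Of the circadian repressors, Nr1d1 fell from 11.1 ± 0.592 to 0.57 ± 0.333 TPM. Of the early response genes 13 of 29 were higher and 6 lower, with Gadd45b rising from 3.94 ± 0.807 to 38.6 ± 7.24 TPM and Zfp36l1, which destabilises mRNAs, falling from 79.9 ± 14.2 to 7.05 ± 1.2 TPM.

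Interferon response genes changed in one direction. Of 61 tested, none rose and 49 fell, and their median log2 difference was -1.09, against -0.20 over all genes; 44 were lower under either scaling, and 2 higher after median-of-ratios scaling. Gbp2, a guanylate-binding protein that attacks intracellular microbes, was at 87, 266, 168 and 81.4 TPM without and 10.4, 28.1, 18.1 and 15.2 TPM with IL-25. The groups were separate, and replicate 2 without IL-25 was the highest library. It also had the highest summed level of the list, 15395 TPM against 13144 to 13554 TPM in the other controls and 7705 to 8394 TPM with IL-25; without it again 49 genes fell and none rose, with a median of -0.93. Rtp4 fell from 40.7, 58.8, 31.8 and 31.8 TPM to 0.63, 2.42, 0 and 1.3 TPM and Slfn2 from 231 ± 10.6 to 23 ± 1.21 TPM. The abundant member Bst2 was not called, at 149.5 ± 29.3 and 138 ± 11.1 TPM. Isg15, a much lower member, was not called either, at 9.57 ± 4.52 and 7.51 ± 3.98 TPM. The interferon-induced transmembrane genes Ifitm1, Ifitm2 and Ifitm3, outside this count, ran against it. They lie close together on chromosome 7 and all rose, Ifitm1 from 8.42, 0, 0 and 26.1 TPM to 160.2, 252, 164 and 120.1 TPM, Ifitm2 from 28.9 ± 3.82 to 141 ± 15.4 TPM and Ifitm3 from 14.7 ± 6.3 to 54 ± 11.5 TPM. They were looked up after their position next to each other was seen.

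Class I molecules display peptides of the cell's own proteins, and class II molecules those of proteins taken up. In the list of antigen processing and presentation, which holds genes of both, 24 of 29 tested were lower and 2 higher. Without control replicate 2 the counts were again 24 and 2, with a median log2 difference of -0.71. B2m, the light chain of every class I molecule and the most abundant gene of the libraries without IL-25, was at 11359, 10518, 10264 and 10381 TPM without and 5036, 5435, 4836 and 5456 TPM with IL-25. The heavy chain H2-K1 fell from 5171 ± 299 to 1952 ± 146 TPM and the peptide transporter Tap1 from 154 ± 33.1 to 86 ± 7.65 TPM. Reads of the H2 genes may be shared among near-identical copies, so single H2 values are uncertain. The 2 members that rose were of class II, H2-Ab1, from 9.68 ± 2.06 to 36.7 ± 4.97 TPM, and H2-DMb1, from 1.94 ± 0.918 to 6.78 ± 0.838 TPM, while Cd74, the class II invariant chain, fell from 25.5 ± 12.3 to 3.56 ± 0.986 TPM. Within the proteasome the special subunits that serve presentation parted from the rest. The 3 catalytic subunits of the immunoproteasome all fell, Psmb8 from 1144 ± 148 to 667 ± 22.6 TPM, Psmb9 from 213 ± 36.7 to 107 ± 6.71 TPM and Psmb10 from 276 ± 60.4 to 128 ± 11.7 TPM, as did the activators Psme1 and Psme2. Of all 47 proteasome genes tested, those 5 included, 19 were higher and 9 lower.

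Promoters of these genes are shown because many hold the same sequence, the interferon-stimulated response element, searched as GAAA, any 2 bases and GAAA on either strand in the 250 bases before each RefSeq start. It was present in 21 of the 44 interferon response genes whose promoters could be matched (47.7%), in 4 of 22 antigen presentation genes (18.2%), and in 3.46% of all 27025 genes with a promoter in the RefSeq table (GRCm38.p6, the assembly that mm10 is made from). Among tested genes it was in 40 of 595 that fell at least 2-fold (6.72%) and 13 of 392 that rose at least 2-fold (3.32%). Of the 21 list members with it 17 fell (median log2 difference -1.30), and of the 23 without it also 17 fell (median -0.91). The list is of genes known to answer interferon, so its share is not independent evidence. Stretches around the match are given 5′ to 3′ on the gene's strand with the match in capitals, for Gbp2 and B2m, which fell, and for Gzma, which holds a match and rose.
Gbp2 (chr3:142620554-142620662, plus strand): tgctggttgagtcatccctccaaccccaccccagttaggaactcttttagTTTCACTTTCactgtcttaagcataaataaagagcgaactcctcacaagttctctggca
B2m (chr2:122147498-122147607, plus strand): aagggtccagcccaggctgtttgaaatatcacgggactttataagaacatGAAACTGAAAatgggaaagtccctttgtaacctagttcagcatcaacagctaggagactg
Gzma (chr13:113101019-113101128, minus strand): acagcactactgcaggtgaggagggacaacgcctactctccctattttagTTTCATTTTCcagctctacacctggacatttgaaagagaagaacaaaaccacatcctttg
The match starts 59 bases before the start site in Gbp2, 139 in B2m and 97 in Gzma. A match is a description of these letters and not evidence of binding.

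**Figure D2:**
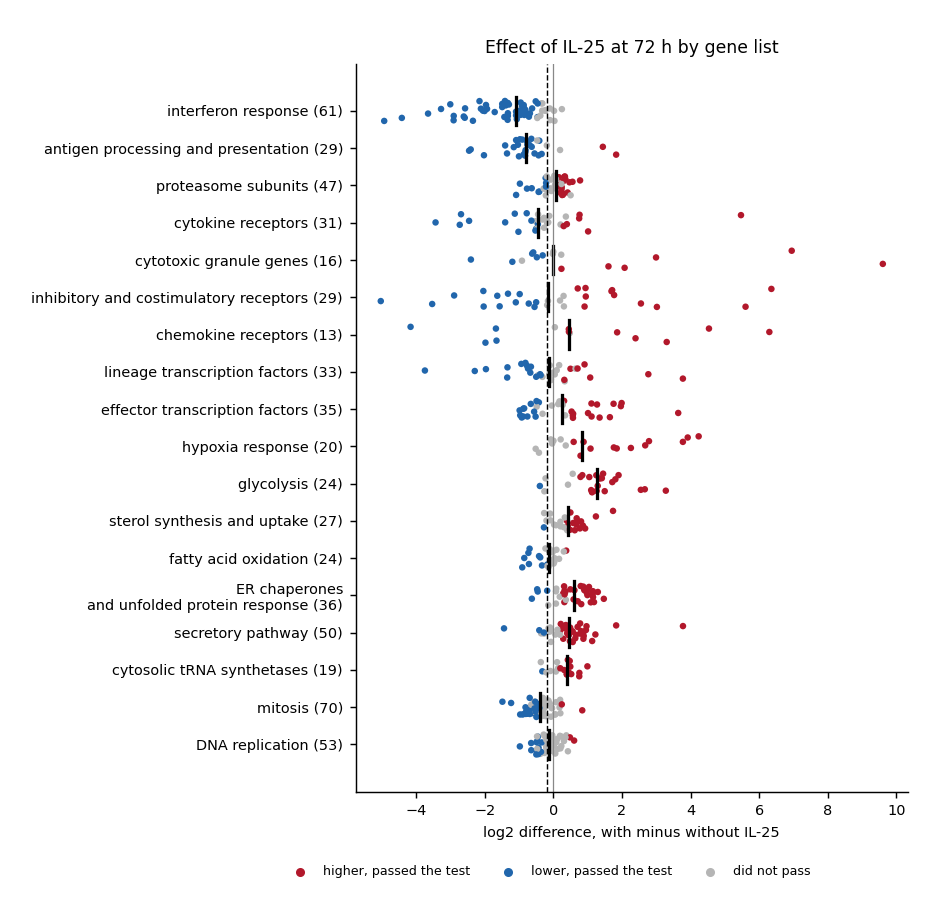
Log2 difference at 72 h, with IL-25 minus without on the log2(TPM + 1) scale, for each tested member of 18 gene lists, 1 point per gene. Filled points passed the test (higher in red, lower in blue), grey points did not, black bars are list medians and the dashed line is the median of all tested genes, -0.20. No interferon response gene passed the test on the right of 0, and no hypoxia gene on the left.

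Genes of the hypoxia response, the programme that the factor HIF-1 drives when oxygen is scarce, rose: 12 of 20 tested were higher and none lower. Egln3 encodes an oxygen sensor that marks HIF for destruction. It was at 6.88, 4.07, 7.4 and 8.43 TPM without and 145, 145, 131 and 141 TPM with IL-25, a log2 difference of 4.24 (SE 0.16, adjusted p = 3.53e-17). Bnip3, a mitophagy receptor, was at 18, 11.5, 16.1 and 18.6 TPM without and 263, 268, 224 and 258 TPM with IL-25, and neither gene's groups overlapped. Hilpda, a lipid droplet protein that blocks lipolysis, rose from 38.3 ± 2.65 to 251 ± 25.2 TPM and Ankrd37 from 15.1 ± 3.6 to 109 ± 17.7 TPM. Hif1a itself was not called, at 14.3 ± 3.15 and 19.1 ± 7.66 TPM, but was called higher after median-of-ratios scaling (0.56), quantile normalization (0.57) or without replicate 4 of the IL-25 libraries (0.53). Pdk1 was not called, at 28.2 ± 7.27 and 28 ± 6.22 TPM, and Epas1, which encodes HIF-2 alpha, fell from 28.1 ± 2.11 to 13.8 ± 2.11 TPM. Oxygen in the cultures and cell density are not given in the labels.

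Of 24 tested genes of glycolysis 19 were higher and 1 lower, and their TPM summed to 9726 to 11521 without IL-25 and 25808 to 28123 with it. The steps were not raised evenly. Slc2a3, the glucose importer GLUT3, rose from 5.76 ± 0.898 to 38.5 ± 4.51 TPM, and Slc16a3, the lactate exporter MCT4, was at 45.5, 35.9, 34.6 and 55 TPM without and 287, 265, 288 and 249.6 TPM with IL-25. Aldoc, an aldolase, rose 12-fold by the ratio of means, whereas its abundant relative Aldoa rose from 1404 ± 91.1 to 3836 ± 231 TPM. The 2 hexokinase genes named here moved in opposite directions: Hk2 rose from 6.94 ± 3.16 to 12 ± 1.23 TPM and Hk1 fell from 58.6 ± 7.74 to 44.2 ± 4.97 TPM, a small fall that is not called after either other scaling or without any 1 of 4 libraries (replicates 2 and 4 of each condition). Ldha, which turns pyruvate into lactate, rose from 1859 ± 131 to 6109 ± 169 TPM. The pentose phosphate branch did not follow, with 2 higher and 3 lower of 8 tested.

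The core of the hypoxia response element, ACGTG on either strand, was in 10 of 16 hypoxia genes with a matched promoter (62.5%) and 11 of 23 glycolysis genes (47.8%), against 18.5% of all genes with a promoter and 26% of tested genes. It was in 30.4% of genes that rose and 22% of genes that fell at least 2-fold. The glycolysis share was not particular to that list. In the other lists searched, ACGTG was in 9.09% (interferon response) to 47.5% (secretory pathway, described below) of genes with a matched promoter. These letters also lie inside the E-box CACGTG, which counts as a match on both strands. Of the 10 hypoxia genes with a match 8 rose, as did 2 of the 6 without. The hypoxia list is of genes known to answer low oxygen, so its share is not independent evidence. The 2 promoters shown are those of Pgk1, with 2 separate matches, and Bnip3, with a single E-box.
Pgk1 (chrX:106186900-106187023, plus strand): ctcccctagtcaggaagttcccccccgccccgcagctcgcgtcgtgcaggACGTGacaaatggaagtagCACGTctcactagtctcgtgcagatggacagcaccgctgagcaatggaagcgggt
Bnip3 (chr7:138909559-138909664, minus strand): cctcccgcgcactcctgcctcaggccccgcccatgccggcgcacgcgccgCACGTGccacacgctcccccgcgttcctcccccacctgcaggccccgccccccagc
Pgk1 rose from 423 ± 19.7 to 1582 ± 53.5 TPM.

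Among lipid and mitochondrial genes, those of sterol synthesis rose more often than they fell. In fatty acid uptake and storage 8 of 29 tested genes were higher and 7 lower, or 15 and 5 after median-of-ratios scaling. Dgat1, which makes triglyceride, rose from 20.8 ± 5 to 98.4 ± 4.19 TPM, and Mgll, which breaks down monoglycerides, fell from 12.9 ± 4.43 to 3.05 ± 2.59 TPM. Fdps, which makes farnesyl pyrophosphate in the sterol pathway, went from 129.6 ± 17.2 to 432 ± 16.9 TPM, and 15 of 27 sterol genes were higher and 1 lower. In fatty acid oxidation 9 of 24 tested genes were lower, a share near the 33.2% of all tested genes, and 1 was higher. After median-of-ratios scaling the counts were 5 and 5. Pyruvate entry and the citrate cycle had 5 genes higher and 7 lower of 27 tested (3 higher without control replicate 2 or any 1 IL-25 library), turning to 11 and 5 under that scaling. Mdh2, mitochondrial malate dehydrogenase, rose from 267 ± 23.5 to 476 ± 12.1 TPM and Pdha1, a subunit of pyruvate dehydrogenase, fell from 135 ± 7.3 to 88.4 ± 4.93 TPM. For the 76 nuclear-encoded respiratory subunits no direction can be given: 27 were higher and 18 lower, but 47 and 4 after median-of-ratios scaling and 13 and 23 after quantile normalization.

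The machinery that folds and exports secreted proteins rose. Of 36 endoplasmic reticulum (ER) chaperone and unfolded protein response genes 26 were higher and 4 lower, and of 50 secretory pathway genes 35 and 3, directions that held under both other scalings. Hspa5, encoding BiP, the main ER chaperone, was at 347, 369, 345 and 373 TPM without and 671, 684, 689 and 637 TPM with IL-25, a log2 difference of 0.90 (SE 0.05, adjusted p = 3.59e-13). Kdelr3, a receptor that returns chaperones to the ER, changed most within these lists, from 1.2, 1.33, 1.63 and 1.09 TPM to 31, 31, 31.9 and 28.7 TPM. Both genes separated the conditions without overlap. Fkbp11, a folding enzyme of secretory cells, rose from 0.59 ± 0.209 to 48.7 ± 2.54 TPM, Manf from 249 ± 13.6 to 691 ± 13.1 TPM, and Sec61g, part of the channel into the ER, from 429.6 ± 114 to 984 ± 137 TPM. Ddit3, encoding the stress factor CHOP, did not rise with them: it went from 28.8 ± 4.65 to 18.3 ± 3.05 TPM, called lower (-0.63) but not after either other scaling, nor without control replicate 2 or IL-25 replicate 4. The sensor gene Ern1 was not called, at 10.9 ± 2.2 and 12.5 ± 1.52 TPM, but was called higher after median-of-ratios scaling (0.40) and quantile normalization (0.44).

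The ER stress response element, CCAAT and CCACG separated by 9 bases on either strand, was in 9 of the 31 ER chaperone genes with a matched promoter (29%) and in 35 of all 27025 genes (0.13%). Of those 9 genes 8 rose (median log2 difference 0.90 over the 9), and of the other 22 members 13 rose and 4 fell (median 0.32). The list was drawn up for ER chaperones and the unfolded protein response, so its share is not independent evidence. Shown are 3 promoters that hold it, with their different distances and strands.
Hspa5 (chr2:34771975-34772089, plus strand): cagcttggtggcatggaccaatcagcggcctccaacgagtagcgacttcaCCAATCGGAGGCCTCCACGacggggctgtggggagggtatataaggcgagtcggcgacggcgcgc
Pdia6 (chr12:17266441-17266559, plus strand): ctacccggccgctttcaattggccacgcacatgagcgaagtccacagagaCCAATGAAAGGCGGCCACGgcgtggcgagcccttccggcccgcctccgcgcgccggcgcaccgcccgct
Creld2 (chr15:88819470-88819588, plus strand): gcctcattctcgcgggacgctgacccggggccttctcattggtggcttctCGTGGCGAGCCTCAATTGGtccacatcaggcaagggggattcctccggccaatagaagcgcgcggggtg
The match begins 65 bases before the start of Hspa5, 98 of Pdia6 and 126 of Creld2, where it lies on the opposite strand. Pdia6 rose from 179 ± 10.9 to 407 ± 15.8 TPM and Creld2 from 67.5 ± 3.08 to 145 ± 2.16 TPM.

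Genes that make and activate amino acids rose alongside. Asns, asparagine synthetase, was at 4.89, 5.93, 4.5 and 2.89 TPM without and 45.3, 55.2, 51.4 and 42.3 TPM with IL-25, a log2 difference of 3.18 (SE 0.17, adjusted p = 4.27e-14). Its promoter is shown for the amino acid response element, searched as TGATG, any base and AA on either strand. The element is in 3.91% of all genes with a promoter and in 4 of 25 genes of the amino acid response list (16%). That list was drawn up for this response, so its share is not independent evidence.
Asns (chr6:7693210-7693282, minus strand): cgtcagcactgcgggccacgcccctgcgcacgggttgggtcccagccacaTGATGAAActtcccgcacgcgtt
Of 31 tested genes of that list 16 were higher and 6 lower, and of 19 cytosolic tRNA synthetases 12 and 1. Phgdh, the first enzyme of serine synthesis, rose from 75.9 ± 6.4 to 217 ± 18.7 TPM. Arg1, the arginase that ILC2s express at rest, fell from 407, 393, 387 and 417 TPM to 149, 145, 118 and 182 TPM, with no overlap, while Smox, spermine oxidase, rose from 4.45 ± 0.667 to 46.6 ± 5.6 TPM and Srm, spermidine synthase, from 27.5 ± 5.76 to 59.2 ± 6.31 TPM.

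Most genes of division were not called, and their shares lower were near (mitosis) or below (replication) the 33.2% of all tested genes. Over all tested genes 15.3% were higher. Of 70 mitotic genes 2 were higher and 26 lower (median log2 difference -0.40), with 11 lower and 4 higher after median-of-ratios scaling. The number lower also ran from 8 with a pseudocount of 0.1 TPM, and 15 without IL-25 replicate 4, to 45 with the 72 h libraries fitted alone. Cenpf fell from 23.9 ± 3.38 to 7.99 ± 1.97 TPM, and the proliferation marker Mki67 was not called, at 20.4, 19.2, 21.9 and 23.8 TPM without and 14.9, 15.8, 17.6 and 14.2 TPM with IL-25, but passed as lower with the 72 h libraries fitted alone, with library weights or without IL-25 replicate 3. Of 53 replication genes 2 were higher and 12 lower, and that balance turned to 11 and 3 after median-of-ratios scaling; 7 were lower without IL-25 replicate 4. Tyms, thymidylate synthase, fell from 236 ± 22.1 to 119 ± 8.94 TPM, while Pcna, at 206 ± 20.4 and 223 ± 18 TPM, was called only after median-of-ratios scaling, as higher (0.35).

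Of 32 tested genes of the BCL-2 family and cell death 9 were higher and 12 lower, or 10 and 7 after median-of-ratios scaling. The share lower was near the 33.2% of all tested genes, of which 15.3% were higher. The survival genes Bcl2 and Bcl2l1 moved apart. Bcl2 was at 69.9, 76.2, 80.6 and 70.6 TPM without and 13, 11.6, 12.2 and 10.8 TPM with IL-25. Bcl2l1, encoding BCL-XL, rose from 91.6 ± 5.16 to 167 ± 6.13 TPM. The metallothioneins, small proteins that bind zinc and copper, were nearly absent without IL-25. Mt1 was at 1.25, 0, 2.66 and 4.17 TPM without and 142, 140.5, 138 and 144 TPM with it, Mt2 was listed at 0 in all 4 libraries without and at 28.5, 33.4, 18.8 and 27.2 TPM with it, and Mt3 was also listed at 0 without and at 10.4, 4.75, 14.2 and 8 TPM with it. The 3 genes lie next to each other on chromosome 8, between 94152607 and 94180327 (mm10). Of 34 antioxidant genes 16 were higher and 9 lower: Hmox1, heme oxygenase, rose from 5.06 ± 0.883 to 19.9 ± 1.43 TPM, and Nqo1, another target of the factor NRF2, fell from 56.6 ± 8.69 to 14.9 ± 3 TPM. Cytoskeletal genes were among the most abundant to rise, with Actg1, gamma-actin, going from 2942 ± 145 to 8498 ± 260.1 TPM and Tubb6 from 22.1 ± 4.39 to 153 ± 8.32 TPM, and 19 of 32 actin and tubulin genes higher and 6 lower.

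Genes that changed by at least 2-fold in the same direction lay next to each other in places. With tested genes ordered along the mm10 chromosomes, 26 runs of 3 or more neighbours moved together. The longest was of 6 genes on chromosome 5 that fell, Abcg3 and the guanylate-binding protein genes Gbp8, Gbp9, Gbp4, Gbp10 and Gbp6, whose near-identical sequences may share reads. On chromosome 14 the fall of Il17rb came with that of its neighbours Actr8, from 53.3 ± 3.96 to 22.1 ± 4.01 TPM, Chdh, from 13.9 ± 1.72 to 0.645 ± 0.281 TPM, and Cacna1d, from 1.74, 1.72, 1.94 and 3.15 TPM to 0, 0.25, 0 and 0.09 TPM. Chdh and Cacna1d overlap in these coordinates and Chdh ends close to Il17rb, and use of strand in the counting is not given in the sources used here, so reads of neighbours cannot be told apart. On chromosome 1 the IL-10 family genes Il10 and Il24 rose together with Fcmr, which encodes a receptor for immunoglobulin M and stood at 0 in each control library and at 17.5, 17.9, 18.8 and 18.1 TPM in those with IL-25. On chromosome 9 the chemokine receptor genes Xcr1, Ccr1 and Ccr3 rose, Xcr1 from 3.87 ± 1.23 to 16.3 ± 1.88 TPM and Ccr3 from 0, 0.23, 0 and 0 TPM to 4.27, 6.06, 2.82 and 5.63 TPM.

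The effect at 72 h was then compared with that at 48 h, each taken against its own controls of the same time. The difference passed the test for 551 genes in the positive direction (5.22%) and 1002 in the negative (9.50%), with a median over all genes of -0.09; after median-of-ratios scaling the counts were 872 and 610, and after quantile normalization 748 and 652. For comparison, the effect at 72 h differed from that at 4 h for 34.6% of genes. Of the 2276 genes lower at both times 177 differed, and of the 1204 higher at both 332 differed. Another 46 genes went from lower at 48 h to higher at 72 h and 90 from higher to lower, each with a difference that passed the test.

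**Figure D3:**
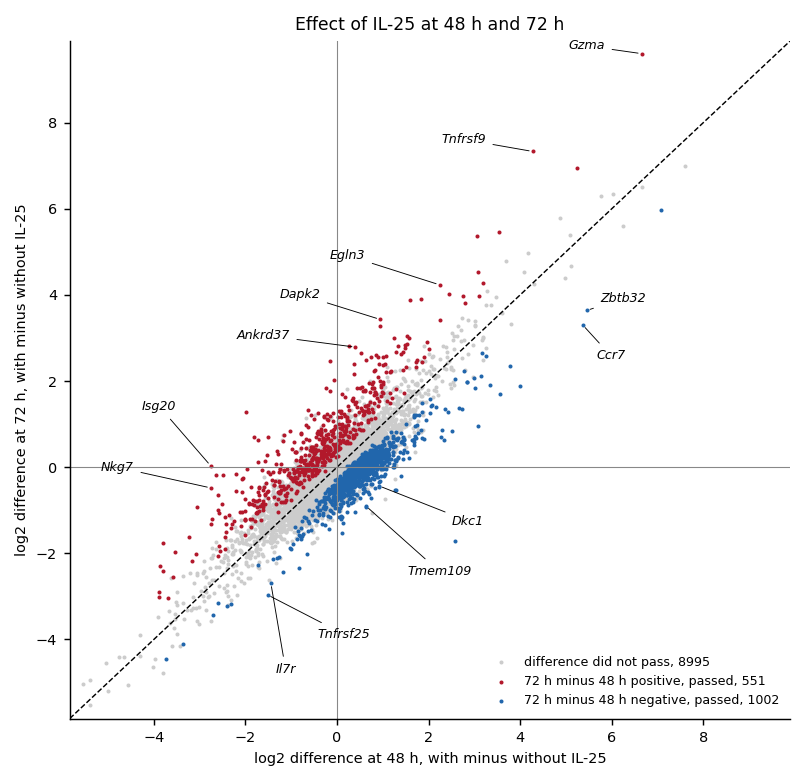
Effect of IL-25 at 48 h (x axis) and at 72 h (y axis), each as the log2 difference to the controls of the same time, for 10548 tested genes, 1 point each. Red points have a positive and blue points a negative difference, 72 h minus 48 h, that passed the test, and the dashed diagonal marks equal effects. Isg20 lies at -2.76 at 48 h and 0.03 at 72 h.

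Hypoxia and glycolysis genes had the larger effect at 72 h. The difference was positive for 12 of 20 hypoxia genes and negative for none, and positive for 16 and negative for 1 of 24 glycolysis genes. Ankrd37 was at 12.7 ± 2.77 and 16.9 ± 1.22 TPM without and with IL-25 at 48 h and at 15.1 ± 3.6 and 109 ± 17.7 TPM at 72 h, a difference of effects of 2.38 (SE 0.32, adjusted p = 8.71e-06). For Egln3 the difference was 2.00, for Bnip3 2.07 and for Aldoc 2.35. The granule genes Gzma and Prf1 also gained, by 2.95 and 1.41, and Dapk2, a calmodulin-regulated kinase, by 2.49, from 3.04 ± 0.884 TPM with IL-25 at 48 h to 26.4 ± 5.17 TPM at 72 h.

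The growth machinery ran the other way. At 48 h, 56 of 70 genes of Myc and ribosome biogenesis were higher with IL-25 and 4 lower, and at 72 h 20 were higher and 12 lower; the difference of effects was negative for 45 and positive for 2. The same held for mitochondrial ribosomal proteins, negative for 42 and positive for 1 of 78, for cytosolic and mitochondrial chaperones, negative for 25 and positive for none of 30, and for proteasome subunits, negative for 20 and positive for 1 of 47. Over all tested genes 9.50% were negative and 5.22% positive. After median-of-ratios scaling the negative counts were 39, 22, 20 and 4 in that order, and the positive ones 2, 1, 0 and 1. Under that scaling 610 of 10523 genes were negative, so the proteasome share was then near that of all genes. After quantile normalization 9 of the 47 proteasome genes were negative, against 652 of 10548 genes. Myc itself was at 50 ± 6.4 and 94.5 ± 5.52 TPM without and with IL-25 at 48 h and at 46.7 ± 3.23 and 56.3 ± 5.93 TPM at 72 h, a difference of -0.65 (SE 0.12, adjusted p = 3.58e-04); the rise of Myc at 72 h narrowly missed the test without IL-25 replicate 1 (adjusted p = 0.051). Dkc1, which modifies ribosomal RNA, changed sides, with an effect of 0.91 at 48 h and -0.43 at 72 h and a difference of -1.35; its fall at 72 h is not called after median-of-ratios scaling. For Hspd1, the mitochondrial chaperone HSP60, the effect shrank from 1.67 to 0.58.

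**Figure D4:**
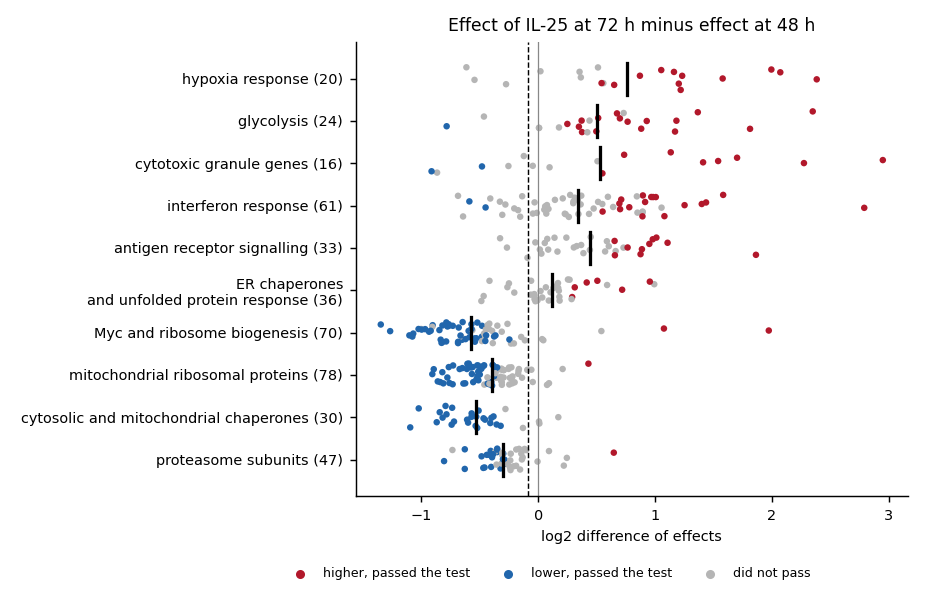
Effect of IL-25 at 72 h minus its effect at 48 h, in log2, for each tested member of 10 gene lists. Filled points passed the test of the difference (positive in red, negative in blue), black bars are medians and the dashed line is the median of all tested genes, -0.09. Every called hypoxia gene lies right of 0, and every called gene of the cytosolic and mitochondrial chaperones left of it.

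Some genes that were lower with IL-25 at 48 h were not called, or were lower by less, at 72 h. Isg20, an interferon-induced exonuclease, was at 80.1 ± 10.2 and 11.1 ± 2.54 TPM without and with IL-25 at 48 h, and at 75.8, 106, 81.1 and 77.8 TPM without and 87.7, 106, 71.2 and 83.6 TPM with IL-25 at 72 h, so the difference of effects was 2.79 (SE 0.24, adjusted p = 1.25e-08). The inhibitory receptors Lilrb4a and Lilr4b, a pair of near-identical genes that may share reads, had differences of 2.04 and 2.31 and were not called at 72 h, except Lilr4b as lower without control replicate 1 (-0.25). Nkg7 kept a small fall, with an effect of -2.76 at 48 h and -0.48 at 72 h, and Bhlhe40, a factor that restrains Il10, went from -3.06 to -0.92. Lck, the kinase of antigen receptor signalling, changed sides, from 18.2 ± 4.03 and 8.4 ± 1.79 TPM at 48 h to 13.7 ± 2.45 and 25.2 ± 3.61 TPM at 72 h, a difference of 1.86. Interferon response genes as a list moved back in part, with a positive difference for 17 and a negative one for 2 of 61.

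Other effects faded or deepened. Ccr7 and Zbtb32, a repressor of lymphocyte responses, were still higher at 72 h but by less, with differences of -2.06 and -1.82. Tnfrsf25 was lower at both times and lower still at 72 h, with effects of -1.52 and -2.97 and a difference of -1.45, and Il7r likewise with -1.45 and -2.69 and a difference of -1.25. Tmem109, a membrane protein, passed from higher to lower, with effects of 0.63 and -0.90.

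**Figure D5:**
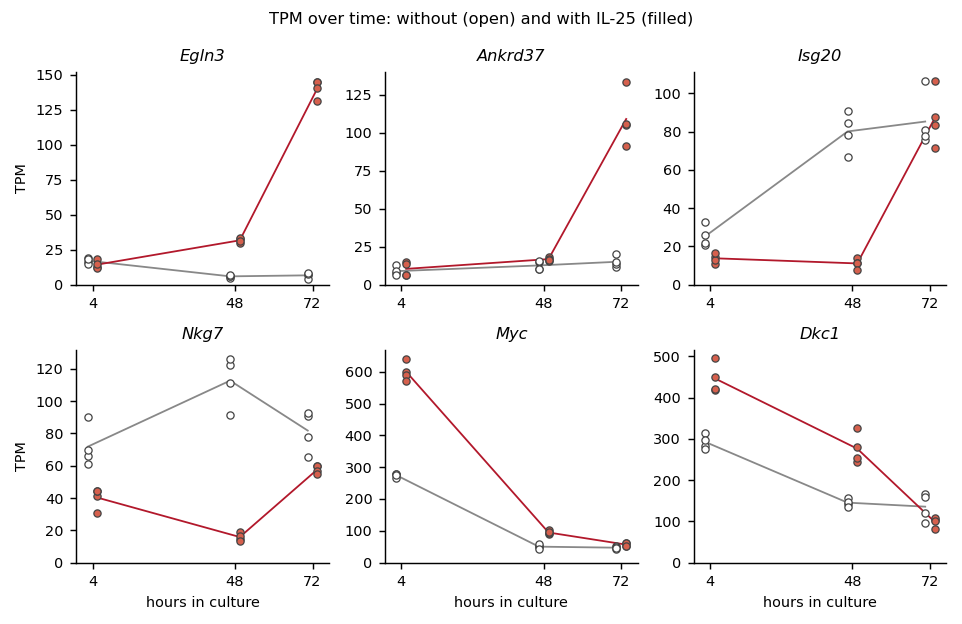
TPM of 6 genes at 4, 48 and 72 h without IL-25 (open circles) and with it (filled circles), 1 circle per library and a line through each group's mean, on a linear axis that starts at 0 for each gene. Egln3 parts at 48 h and further at 72 h, and Ankrd37 mainly at 72 h. Isg20 is low with IL-25 at 48 h and overlaps the controls at 72 h, and Myc is highest at 4 h.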

How the data were processed

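The authors deposited TPM values per gene and library for the culture samples. The mm10 build, RSEM 1.3.3, STAR 2.7.5c and cutadapt 2.10 are named, without stated roles, per the submitters' processing notes, and the filter behind the 10799 listed genes is not given in the sources used here. TPM keeps no read counts, so no count model was used, and a more abundant gene lowers the TPM of all others.

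All 6 culture groups of 4 libraries (4, 48 and 72 h, with and without IL-25) were fitted together with limma 3.58.1 in R 4.3.3 on log2(TPM + 1), with a mean-dependent prior (trend), after a filter of 1 TPM in at least 4 of 24 libraries. Contrasts were IL-25 minus none at 72 h, and that effect minus the effect at 48 h or 4 h. The Benjamini-Hochberg adjustment ran over the 10548 tested genes. The procedure was tested on simulated data. Alternatives were a pseudocount of 0.1 TPM, no filter or one of 5 TPM, 2 other scalings, the compared groups alone, array weights, a replicate block and leaving out each library. Genes and the 65 gene lists were chosen with earlier results of these data known. Named genes were drawn, without naming all, from the 15 largest rises and falls with no overlap, the 10 most abundant genes of each condition, the 10 largest differences from 48 h in each direction and, per list, up to 6 rises, 6 falls and 4 genes not called. Also named, outside that rule, were 19 genes looked up for their role or their neighbours after values were seen. Symbols matched the RefSeq table (GRCm38.p6) for 10701 genes, which gave coordinates and promoters.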

Additional observations from a re-analysis of the deposited data

Results flagged for a closer look

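In 15 of 342 groups of 4 libraries, each a named gene at 72 h in one condition, the highest or lowest library lay far from the other 3 for the spread of its group. Chance alone marks about 1 group in 20, which is no fewer than were found here, so single cases carry little weight. Of the 15, 7 were in replicate 2 without IL-25: this library was high for Psmb8 (1366 TPM), Ltb (386 TPM), Ddit3 (35.7 TPM), Tmem109 (63.0 TPM), Serpinb6a (85.4 TPM) and Ccr3 (0.23 TPM) and low for Serpinb1a (122 TPM). It also had the highest sum over the interferon response list, and the counts without it stand beside that list. The cause was not tested. Without IL-25, replicate 4 was also high for Gzma (12.4 TPM) and Cacna1d (3.15 TPM), and replicate 1 low for Flt3l (107 TPM) and Rab27a (15.97 TPM). With IL-25, replicate 2 stood apart for Aldoc (48.1 TPM), Cd226 (7.72 TPM) and Krt18 (9.77 TPM), and replicate 3 for Hmox1 (22.01 TPM).

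The effect of IL-25 at 72 h differed from that at 48 h, by limma's test of the difference, for 1553 genes, and the 17 whose difference is given with its value above are repeated here. The difference was positive for Gzma (2.95 in log2), Isg20 (2.79), Dapk2 (2.49), Ankrd37 (2.38), Aldoc (2.35), Lilr4b (2.31), Bnip3 (2.07), Lilrb4a (2.04), Egln3 (2.00), Lck (1.86) and Prf1 (1.41). It was negative for Ccr7 (-2.06), Zbtb32 (-1.82), Tnfrsf25 (-1.45), Dkc1 (-1.35), Il7r (-1.25) and Myc (-0.65). Several of these genes were named for this difference.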

How the results depend on the processing

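Scaling decided the balance of the directions. After median-of-ratios scaling 2651 genes were higher and 2150 lower at 72 h, in place of 1610 and 3503; the cause was not tested. The total moved little, from 5113 called genes to between 4504 and 5340 under the other settings, and the count that differed from 48 h from 1553 to between 1400 and 1701. With 1 library left out, the called genes numbered 4569 to 5000 (fewest without IL-25 replicate 4), the higher ones 1467 to 1616, the lower ones 3008 to 3483, those differing from 48 h 1313 to 1592 and from 4 h 3386 to 3569.

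Of 168 named genes 160 kept their call and direction after median-of-ratios scaling and 162 after quantile normalization; the exceptions are given beside their values above, and none reversed. The 17 differences from 48 h given with their values kept theirs under every setting run. The balance changed with scaling for lists of JAK and STAT, lineage factor, neural and lipid receptor, lipid storage, granule and fatty acid oxidation genes. It also changed for citrate cycle, mitotic, replication, ribosome, cytokine receptor, NF-kB, BCL-2 and inhibitory and costimulatory receptor genes. Antioxidant genes moved as well (22 higher and 5 lower after median-of-ratios scaling), as did the amino acid list (17 and 3). The same held for Myc and ribosome biogenesis (37 and 7) and proteasome subunits (28 and 4).

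Replicate numbers are shared between the groups, but same-numbered libraries did not deviate together (r = -0.09, -0.04, 0.01 and -0.07 over the tested genes at 72 h). A correlation over all genes can miss a shared source that moves few genes. Whether same-numbered libraries share a mouse or sort is therefore unknown. With the number as a replicate block, 5133 genes were called at 72 h, and 1527 and 3670 differed from 48 h and 4 h. Sequencing depth is not given, so the precision of low values is unknown beyond the spread between libraries.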

Other observations

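Of the protease inhibitors of the serpin family, to which Serpinb9 above belongs, 6 of 8 tested members fell and 1 rose. Serpinb1a, an inhibitor of granulocyte proteases, was at 162, 122, 170.3 and 168 TPM without and 2.7, 4.47, 4.62 and 1.83 TPM with IL-25, and Serpina3g at 323, 341, 280.1 and 313 and 13.4, 13.8, 11.1 and 17.5 TPM. Both were separate between the conditions. The single rise was Serpinb6a, from 73.8 ± 7.84 to 126 ± 10.5 TPM. After median-of-ratios scaling 4 serpins were lower and 1 higher.

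Among 17 tested genes of fatty acid synthesis 9 were higher and 2 lower, and 11 and 2 after median-of-ratios scaling. Scd2, a desaturase that makes monounsaturated fatty acids, rose from 16.6 ± 1.76 to 93.9 ± 1.3 TPM, and Fads2, the first desaturase of polyunsaturated fatty acids, from 1.33 ± 0.213 to 10.4 ± 1.49 TPM. Acss2, which makes acetyl-CoA from acetate, fell from 11.2 ± 1.4 to 3.31 ± 0.81 TPM. For the 82 cytosolic ribosomal protein genes no direction can be given: 4 were higher and 36 lower, against 12 and 3 after median-of-ratios scaling.

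Other genes with large falls were not described above. Plxdc2 was at 149.9, 146, 157 and 182 TPM without and 2.84, 3.85, 5.79 and 3.14 TPM with IL-25, Cd200r3, of the CD200 receptor family, at 136, 96.6, 127 and 179 and 2.75, 2.28, 3.43 and 3.92 TPM, and Rgs18, a regulator of G-protein signalling, at 40.4, 20.2, 24.2 and 17.8 and 0, 0.14, 0.35 and 0.13 TPM. No library of one condition reached the range of the other for these 3 genes.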
